A study of Danio rerio with 6 samples.

Results

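The uncut larval zebrafish gut (Danio rerio) is described here from 3 of the 6 libraries of the series. These 3 were chosen by their sample group label, wt. The series concerns how the larval intestine regenerates after the whole organ has been severed, and names the cytokines IL-22 and IL-26 in its title. The 3 other libraries come from transected guts and are not analysed here. Genotype is given as WT and tissue as gut for each of the 3 libraries, and their labels name no transection, drug or other treatment, so they are taken as uncut. The larvae were at 5 days post-fertilization, without a statement of whether that is the age at operation or at collection, and the wild-type strain is not named. Each library pooled 10 to 15 dissected guts, so variation between larvae of a pool is not seen. A dissected larval gut carries along whatever organs and body wall adhere to it, which limits these libraries as a model of the intestine alone. The replicates are labelled as biological, with no statement of separate clutches or dissection days.

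The larval zebrafish intestine is a single layer of epithelium, mostly absorptive enterocytes with scattered mucus-secreting goblet cells and hormone-secreting enteroendocrine cells. Enterocytes of its anterior part take up and package dietary fat, whereas a posterior stretch holds lysosome-rich enterocytes that engulf and digest protein inside the cell. Smooth muscle, enteric neurons, vessels and immune cells surround the epithelium, and the liver and the pancreas open into the anterior gut.

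Total counts were 23624582 in replicate 1, 23007422 in replicate 2 and 21835608 in replicate 3. Of 15419 gene symbols in the table, 12410 had at least 1 count in all 3 libraries, 509 in 2 of them, 546 in 1 and 1954 in none. Levels are given in CPM, read counts scaled by TMM library sizes to a common total, where 1 count was worth 0.0397 to 0.0467 CPM and a count of 0 allows a level of up to 0.119 to 0.140 CPM (3 counts, counting error only). CPM values are not divided by transcript length, so ranks order genes by how many counts they took and not by how many transcript copies were present. Errors are SD over the 3 libraries (n = 3). Replicate 1 stood apart from the others. Pearson's r of log2 CPM across genes, which are no independent replicates, was 0.943 between replicates 1 and 2, 0.967 between 1 and 3, and 0.983 between 2 and 3.

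The labelled tissue was checked against defining markers. Villin (vil1), the actin bundler of microvilli, stood at 2076, 2841 and 2996 CPM in replicates 1, 2 and 3. The brush border peptidase anpepb stood at 2649, 4955 and 4571 CPM, and the intestinal cadherin cdh17 at 667, 1142 and 1115 CPM. All 3 markers were high in every library and lowest in replicate 1. Chosen after its value was seen and no defining marker, the intestinal transcription factor cdx1b, a regulator of endoderm fate, had 107 ± 6.55 CPM. Against these, fabp2, a fatty acid binding protein used as an enterocyte marker, had 8, 4 and 3 counts under that symbol, and the phosphatase alpi.1 had 7.27, 0.980 and 3.41 CPM. Neither the counting tool nor the annotation behind the table is named, and their part in this and other markers at or near 0 counts (ctrb1, scg3, ins, ckma and mpeg1.1) was not tested. Markers of the attached organs were abundant too. Trypsin (prss1) marks pancreatic acinar cells, and fabp10a marks hepatocytes, at 1456 ± 472 CPM. RNA of the pancreas and the liver was thus part of the tissue labelled gut.

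A small set of genes took a large part of the counts. Mean CPM was at least 1 for 10666 genes. Of these, 4010 lay between 1 and 10 CPM, 5276 between 10 and 100, 1226 between 100 and 1000, and 154 at 1000 or more. The 154 genes at 1000 CPM or more were 0.999% of the symbols and took 46.5%, 50.5% and 46.1% of the counts in replicates 1, 2 and 3. At the other end, the 2799 genes with a count and a mean under 1 CPM took 0.0802% ± 0.0196. The 10 most abundant genes took 13.8%, 15.9% and 13.8%, a mean of 14.5% ± 1.23. Replicate 2 was the most concentrated, with 145 genes holding 50% of its counts, against 185 in replicate 1 and 198 in replicate 3. Symbols named after clones or loci made up 13.1% of the genes between 1 and 10 CPM and 3.90% of those at 1000 CPM or more. At the borders of the classes the genes differed little. sec61a1 lay just under 1000 CPM at 997 ± 153, and zgc:153968 just over it at 1000.2 ± 45.4.

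The 25 genes with the highest mean CPM took 24.2% ± 2.99 of the counts and belonged to a few functions. The highest mean, 18386 ± 1168 CPM, was that of eef1a1l1, the elongation factor that brings aminoacyl-tRNA to the ribosome. A second elongation factor, eef2b, averaged 13168 ± 767 CPM, the cytoplasmic actin actb2 13001 ± 646 CPM, and the chaperone hsp90ab1 7356 ± 87.8 CPM. Ribosomal protein genes were also among the 25, rps2 at 4827 ± 437 CPM and rplp0 at 4820 ± 307 CPM. Each of these 6 general genes differed by less than 1.19-fold between its highest and lowest library.

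Digestive enzymes of the acinar pancreas supplied 7 of the 25 genes from the marker list. The elastase cela1.6 had 8430, 25074 and 14449 CPM in replicates 1, 2 and 3. Trypsin prss1 had 7218, 23302 and 12925 CPM, and the related proteases prss59.2 and prss59.1 averaged 13501 ± 7190 and 9488 ± 5459 CPM. All 4 were highest in replicate 2 and lowest in replicate 1, about 3-fold apart. The amylase amy2a (5447 ± 3474 CPM), the chymotrypsin-like ctrl (4190 ± 1983 CPM) and the elastase ela3l (4155 ± 2109 CPM) took the same order of libraries. The carboxypeptidase gene cpa5, which the lists had not included, stood at 3118, 15134 and 7548 CPM and varied with them.

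Most of the other 11 of the 25 serve lipid transport, nutrient metabolism or detoxification. apobb.1, the apolipoprotein B on which chylomicrons and very low density lipoprotein are built, had 19456, 17805 and 16047 CPM. The high density lipoprotein component apoa1b had 17798, 6502 and 11937 CPM. The 2 apolipoproteins thus behaved differently, with apobb.1 within 1.21-fold across libraries and apoa1b 2.74-fold higher in replicate 1 than in replicate 2. The chitinase chia.2, a digestive enzyme, had 14742, 17656 and 16249 CPM, and cyp3a65, a cytochrome P450 of xenobiotic metabolism, 9979, 12266 and 11031 CPM. Both differed by less than 1.23-fold between libraries. The gluconeogenic enzyme pck1 averaged 9349 ± 1687 CPM. apoda.2, a relative of apolipoprotein D, had 2957, 12913 and 7907 CPM, a mean of 7925 ± 4978. Its order of libraries was that of the pancreatic enzymes, an order shown by 29.5% of all genes with at least 10 CPM. Which cells its counts come from was not tested. The efflux transporter abcg2a averaged 4324 ± 1655 CPM. The mitochondrial carriers ucp1, an uncoupling protein, and slc25a5, an ADP/ATP exchanger, averaged 6772 ± 1227 and 6749 ± 343 CPM, and zanl averaged 5662 ± 1123 CPM.

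**Figure D1:**
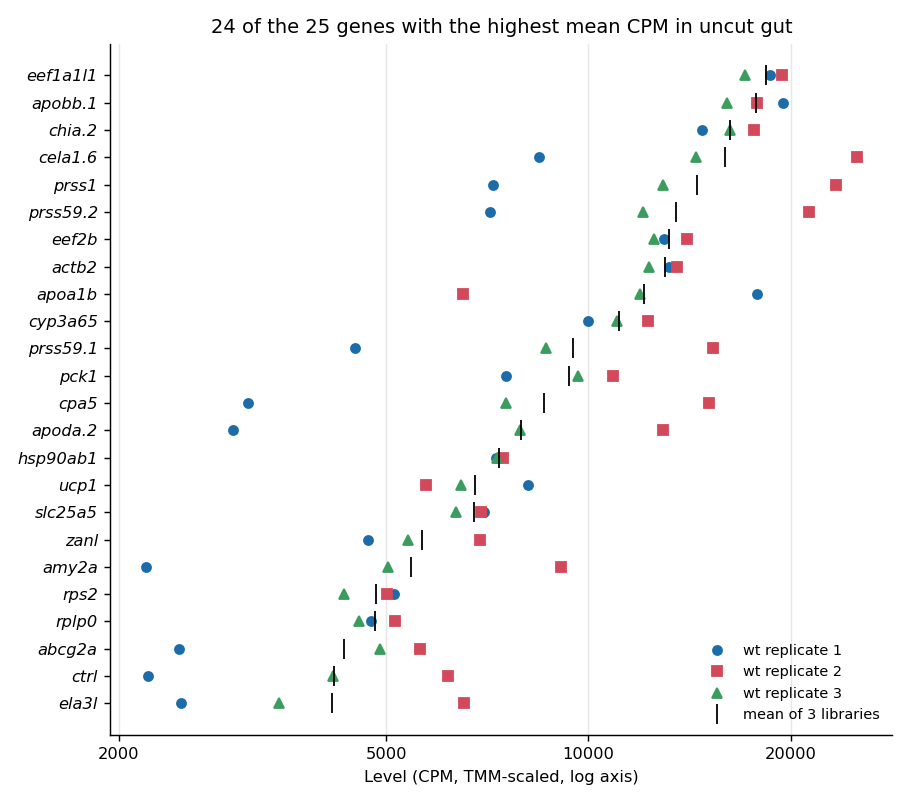
Levels of 24 of the 25 genes with the highest mean CPM, 1 gene per row, on a log axis of TMM-scaled CPM. Circles, squares and triangles are replicates 1, 2 and 3 of the uncut gut and the black bar is their mean; eef1a1l1, eef2b, actb2 and hsp90ab1 lie close together, whereas the pancreatic enzymes lie lowest in replicate 1 and highest in replicate 2.

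Counts were next divided among 25 lists of markers for gut cell types and attached organs, with each gene in 1 list only. Together the lists held 730 genes and took 23.3%, 26.3% and 23.8% of the counts, a mean of 24.5% ± 1.60. A further 28.8% ± 1.67 fell in 14 lists of general cell functions, of which the list of mitochondrially encoded genes had no match, 0.276% ± 0.0196 in 2 lists of transcription factors, and 46.5% ± 1.32 in no list. A share of counts is not a share of cells, since in bulk RNA fewer cells of a type and less RNA per cell cannot be told apart. A list share also grows with the number of markers written and matched for that type and with each marker's length. Matched were 33 of 50 written markers for exocrine pancreas, 48 of 69 for the enterocyte brush border, 14 of 18 for apolipoproteins and 63 of 71 for hepatocytes. The lists with the largest mean shares were exocrine pancreas, the enterocyte brush border and the apolipoproteins, whose ranges over libraries overlapped. Below them the ranges of apolipoproteins and hepatocyte markers did not overlap, nor did those of hepatocyte and lysosome-rich enterocyte markers.

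**Figure D2:**
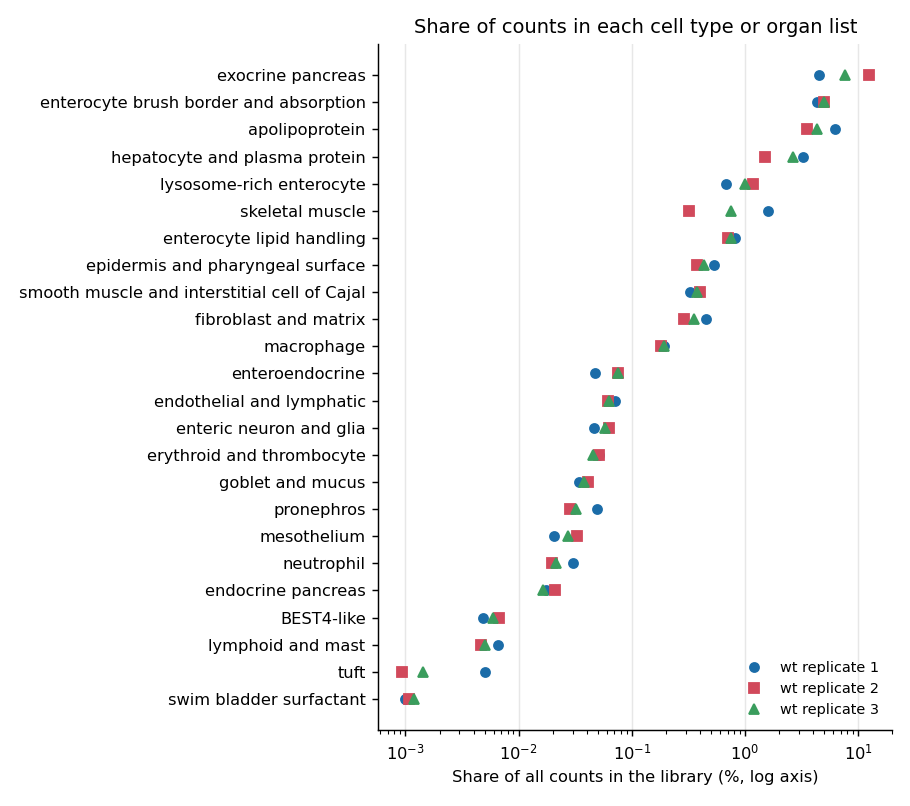
Share of each library's counts (percent, log axis) in the marker lists, 1 list per row, ordered by mean share. Circles, squares and triangles are replicates 1, 2 and 3; the enterocyte brush border list lies between 4.35% and 4.95% in all 3 libraries, while exocrine pancreas runs from 4.48% to 12.4% and skeletal muscle from 0.318% to 1.60%.

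In sum, enterocyte markers took a fairly even share of the counts, although the lysosome-rich list within them spread 1.71-fold between libraries. The 3 enterocyte lists together held 5.86%, 6.84% and 6.68% of the counts in replicates 1, 2 and 3, a mean of 6.46% ± 0.524. The brush border and absorption list alone took 4.75% ± 0.342, led by chia.2 with 34.1% of the list. Of its 48 measured members, 42 had a mean of at least 1 CPM. Besides vil1 and anpepb, its high members included a second chitinase, chia.1, at 2509, 4472 and 3939 CPM. Replicate 1 was lowest for 27 of the 38 members with at least 10 CPM. Orders of this kind are to be read against all 6656 genes with at least 10 CPM, of which 52.1%, 25.8% and 22.1% were lowest in replicates 1, 2 and 3, and 34.1%, 36.7% and 29.3% were highest there. The lipid handling list took 0.759% ± 0.0569, and its highest members were the fatty acid binding protein fabp1b.1 (1537 ± 360 CPM), the acyl-CoA synthetase acsl5 (782 ± 120 CPM) and the sterol carrier scp2a (731 ± 31.8 CPM). fabp1b.1 was highest in replicate 1, acsl5 lowest there, and scp2a nearly level.

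Markers of lysosome-rich enterocytes took 0.684%, 1.17% and 0.997% of the counts in replicates 1, 2 and 3. The cathepsin ctsl.1, a lysosomal protease, had 2084, 3196 and 2622 CPM. Legumain (lgmn), an asparaginyl endopeptidase, had 921, 2222 and 1804 CPM, and the bile acid binding protein fabp6 1020, 2089 and 1341 CPM. All 16 members with at least 10 CPM were lowest in replicate 1, and 14 of them were highest in replicate 2. The endocytic adaptor dab2 had 151, 320 and 244 CPM in the same order. Of the other defining members of this cell type, the receptor partners cubn and amn were not matched to a symbol and are not analysed here.

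Marker lists of secretory cells of the epithelium took small shares. The enteroendocrine list took 0.0468%, 0.0755% and 0.0752%, and all 12 members with at least 10 CPM were highest in replicate 2. ddc, which makes serotonin and dopamine from their precursors, averaged 257 ± 81.5 CPM and held 38.4% of the list. The opioid precursor penka averaged 98.8 ± 26.5 CPM and the neuropeptide adcyap1a 58.7 ± 29.2 CPM. The peptide hormone pyyb, less variable, stood at 44.6 ± 5.78 CPM, and the granin gene scg3 had no counts under that symbol. Whether the counts of the enteroendocrine list come from enteroendocrine cells or from enteric neurons was not tested. For the goblet and mucus list only 8 of 26 written markers were matched, and these took 0.0377% ± 0.00357. They include pou2f3, a transcription factor of tuft cells, with 228, 34 and 51 counts in replicates 1, 2 and 3. The glycosyltransferase galnt7 (116 ± 4.47 CPM), spink4 (105 ± 41.9 CPM) and the mucin-folding disulfide isomerase agr2 (65.6 ± 14.9 CPM) led this list. The goblet markers spdef and muc2.1 were not matched. For BEST4-like cells only 4 of 9 written markers were matched. The chloride channel cftr, found in these cells, stood at 43.7 ± 14.9 CPM and held 72.6% of that list. Its members did not share 1 order. cftr and sctr were highest in replicate 2, whereas slc4a2a was highest in replicate 1, with 278, 19 and 58 counts. tacr2 had no counts under that symbol. Whether the cftr counts come from BEST4-like cells was not tested. The 7 matched members of the tuft cell list, which lacks pou2f3, took 0.00502%, 0.000926% and 0.00144%. Their leading members, the actin bundler avil and the taste-pathway channel trpm5, stood at 18.6, 3.45 and 5.86 CPM and at 16.7, 1.03 and 3.09 CPM, both highest in replicate 1.

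The exocrine pancreas list took 4.48%, 12.4% and 7.67% of the counts in replicates 1, 2 and 3, a mean of 8.20% ± 4.005. Its members moved as a block. All 26 members with at least 10 CPM were highest in replicate 2 and lowest in replicate 1, with a median difference of 3.26-fold between these libraries. On the log2 scale the difference of replicate 1 from replicate 2 ran from -2.41 to -0.83 over the 26 genes. The share thus varied with the library, and without replicate 2 its mean was 6.07%. Among the counts outside the 10 most abundant genes, which include its members cela1.6, prss1 and prss59.2, the list took 4.58% ± 2.36, and the 3 enterocyte lists, without chia.2, took 5.67% ± 0.620. Among defining markers the carboxypeptidase cpa4 averaged 1448 ± 830 CPM and the elastase ela2 1134 ± 732 CPM, whereas the chymotrypsinogen ctrb1 had 18, 28 and 11 counts under that symbol.

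The endocrine pancreas list took a far smaller share of counts, 0.0184% ± 0.00242. Whether these counts come from islets or from hormone-secreting cells of the gut was not tested. Glucagon (gcga), the hormone of alpha cells, had 53.6, 80.0 and 60.8 CPM. The somatostatin genes sst1.1 and sst2 averaged 34.5 ± 9.70 and 18.6 ± 6.76 CPM. Replicate 2 was highest for all 3. It was highest for 4 of the 6 list members with at least 10 CPM, and replicate 1 for the other 2. Of all genes at that level, 36.7% were highest in replicate 2. Insulin (ins) had no counts in any of the 3 libraries, which allows at most 0.119 to 0.140 CPM if its reads were counted under that symbol.

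Hepatocyte and plasma protein genes took 3.27%, 1.48% and 2.66% of the counts, a mean of 2.47% ± 0.909. The retinol carrier rbp4 had 3232, 2140 and 2928 CPM. Transferrin (tfa), the iron carrier of plasma, had 3277, 1312 and 1932 CPM, and the glucose-6-phosphatase g6pca.2 944, 2089 and 1873 CPM. rbp4 and tfa were lowest in replicate 2, whereas g6pca.2 was lowest in replicate 1. Of the 57 members with at least 10 CPM, 54 were lowest in replicate 2, by a median of 2.15-fold against replicate 1. The protease inhibitor serpina1, a hepatocyte marker, showed this too, with 1601, 694 and 1518 CPM. Replicate 2 was thus the library with the most pancreatic enzyme counts and the fewest liver counts. The share outside the exocrine pancreas list was 2.67% ± 0.885.

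Apolipoproteins, which both liver and enterocytes produce, took 6.19%, 3.55% and 4.30%. apobb.1 held 39.3% of the list. After apoa1b the next member was apoa4b.1, an apolipoprotein A-IV made with chylomicrons, at 4865, 3403 and 3447 CPM. Replicate 1 was highest for 10 of the 13 members with at least 10 CPM. The vitellogenin list, for yolk precursor genes of the adult female liver, held 16, 26 and 9 counts in all over 7 genes, 4 of which had none.

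Skeletal muscle markers took 1.60%, 0.318% and 0.755% of the counts, 5.05-fold apart and the widest spread among the lists with at least 10 members at 1 CPM or more. Their mean of 0.893% ± 0.654 was 0.537% without replicate 1. Cardiac-type actin actc1b, the abundant actin of larval somite muscle, had 3051, 263 and 1262 CPM. Fast myosin heavy chain myhz2 had 1721, 45.8 and 646 CPM, and the skeletal actin acta1b 94.7, 34.0 and 67.1 CPM. These 3 genes were highest in replicate 1 and lowest in replicate 2, as were nearly all others. Of 41 members with at least 10 CPM, 39 were highest in replicate 1 and 37 lowest in replicate 2, with a median difference of 9.29-fold. The enolase eno3 went another way, at 1777, 1953 and 1924 CPM, and it held 31.6% of the list. Without eno3 the muscle share was 1.42%, 0.136% and 0.561%. The muscle creatine kinase ckma had no counts under that symbol, beside ckmb, a second such kinase, at 877, 52.7 and 299 CPM.

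The epidermis and pharyngeal surface list took 0.536%, 0.376% and 0.436%. Its leading members were the keratins krt97 (1628 ± 103 CPM) and krt91 (737 ± 105 CPM) and the desmosome-associated periplakin ppl (389 ± 59.5 CPM). krt97 differed little between libraries, and whether these keratins come from skin or from gut epithelium was not tested. The defining skin markers differed in level and order. The basal keratin krt5 had 3, 0 and 1 counts, and tp63, the transcription factor of basal epidermis, had 7.87, 2.15 and 3.27 CPM. The skin keratin krtt1c19e had 43.9, 104 and 56.3 CPM, highest in replicate 2. The list without krt97 took 0.375%, 0.218% and 0.267%, highest in replicate 1 like the muscle list. The pronephros list took 0.0495%, 0.0282% and 0.0318%, and its leading member was the organic anion transporter slc22a6l at 121 ± 19.3 CPM. The surfactant gene sftpbb, a marker of the swim bladder, stood at 10.9 ± 1.41 CPM.

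**Figure D3:**
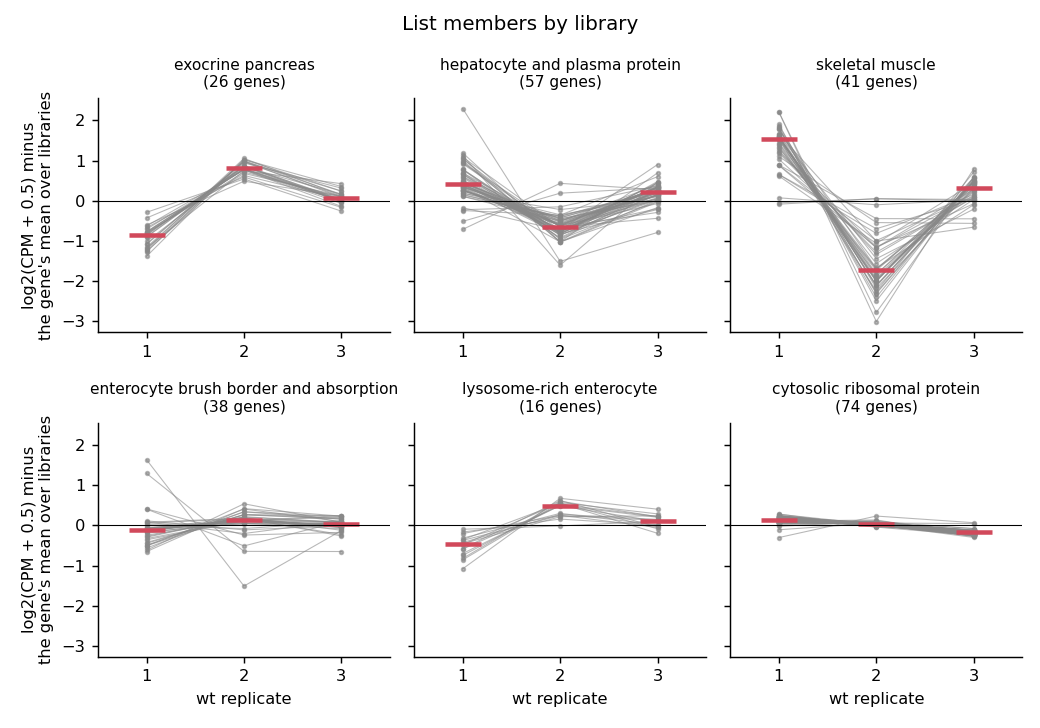
Each grey line joins the values of 1 gene in replicates 1, 2 and 3, as log2(CPM + 0.5) minus that gene's mean, for list members with a mean of at least 10 CPM; red bars are medians. Exocrine pancreas genes lie low in replicate 1 and high in replicate 2, hepatocyte and skeletal muscle genes lie low in replicate 2, and ribosomal protein genes vary little.

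The cells of the gut wall beneath the epithelium had lower shares. The smooth muscle and interstitial cell of Cajal list took 0.366% ± 0.0380, led by the smooth muscle actin acta2 (936, 1725 and 1409 CPM). Smooth muscle myosin myh11a (570 ± 172 CPM) and transgelin tagln (401 ± 101 CPM) followed. All 3 were lowest in replicate 1. The list did not share 1 order, since of its 18 members with at least 10 CPM 9 were lowest and 8 highest in replicate 1. The fibroblast and matrix list took 0.364% ± 0.0807, and the fibronectin gene fn1b (1755 ± 435 CPM) made up 48.2% of it. The collagen col1a1b (308 ± 32.8 CPM) and the laminin lamc1 (284 ± 3.16 CPM) followed. Without fn1b, which had 2184, 1314 and 1768 CPM in replicates 1, 2 and 3, the list took 0.186% ± 0.0273. Which cells the fn1b counts come from was not tested. Mesothelium markers took 0.0268% ± 0.00591, and podxl, which vessels and kidney express as well, held 89.1% of that.

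Enteric neuron and glia markers took 0.0459%, 0.0623% and 0.0581%. The reticulon rtn1a had 74.4, 171 and 118 CPM, followed by the G protein subunit gng2 (38.1 ± 6.14 CPM) and the vesicle calcium sensor syt1a (37.3 ± 11.2 CPM). phox2bb, the transcription factor that defines enteric neurons, had 10.0, 21.2 and 18.1 CPM. Of 12 members with at least 10 CPM, 11 were lowest in replicate 1, as were 52.1% of all genes at that level. The summed share of endothelial and lymphatic genes was steady at 0.0650% ± 0.00478, but single members were not all level. Over its 21 members with at least 10 CPM, the log2 difference of replicate 1 from replicate 2 ran from -1.35 to 0.91. At the top were plvapa (111 ± 27.8 CPM), the VEGF receptor kdrl (62.2 ± 2.73 CPM) and the flow-responsive factor klf2b (61.9 ± 2.41 CPM). Erythroid and thrombocyte genes took 0.0497% ± 0.00340, led by aqp1a.1 (126 ± 22.0 CPM) and rhag (82.5 ± 10.3 CPM). The embryonic globin hbbe1.1 stood at 44.7, 31.5 and 23.3 CPM.

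Immune cell markers took little of the RNA. The macrophage list took 0.187% ± 0.00518, but stoml3b alone held 71.7% of it, and without that gene the list took 0.0529% ± 0.000841. After stoml3b (1344 ± 48.4 CPM) came the granulin grn1 (127 ± 32.1 CPM) and slc37a2 (124 ± 9.59 CPM). Of the defining markers, mpeg1.1 had no counts under that symbol and mfap4 stood at 5.05 ± 0.754 CPM. Neutrophil markers took 0.0303%, 0.0197% and 0.0214%. Myeloperoxidase (mpx), a granule enzyme, had 21.5, 2.57 and 2.998 CPM, and lysozyme (lyz) 11.8, 0.514 and 0.590 CPM. Both granule genes were about 7-fold or more higher in replicate 1 than in the other 2 libraries, whereas rac2, a GTPase of leukocytes, was level at 99.1 ± 13.9 CPM. Lymphoid and mast cell markers took 0.00543% ± 0.00103, and only 9 of the 37 matched reached 1 CPM, among them runx3 (17.8 ± 0.0127 CPM) and gata3 (16.0 ± 7.83 CPM). Of the cytokines in the study's title, il22 was low but above the 3-count limit in every library, with 13, 25 and 31 counts (0.517, 1.17 and 1.41 CPM), and il26 was below it, with 1, 1 and 0 counts.

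Transcription factors of the gut took 0.252% ± 0.0195 of the counts. The endoderm factor gata6 had 211, 182 and 183 CPM. klf5l, a Krüppel-like factor, averaged 165 ± 18.7 CPM, and the caudal-type homeobox gene cdx1a had 96.995, 161 and 168 CPM. gata6 varied by under 1.16-fold, while cdx1a was lowest in replicate 1. Of the 72 measured members, 62 had at least 1 CPM.

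Hox genes, whose paralogue groups 1 to 13 are used in order from the front to the back of the body, took a nearly constant share of the raw counts. It was 0.0242% ± 0.000555, not counting hoxb5a, which was listed with enteric neurons. The levels and sums that follow are in TMM-scaled CPM, a different scale. Of the 48 Hox genes measured, with hoxb5a among them, the highest were hoxc3a (33.9 ± 4.86 CPM), hoxb3a (18.6 ± 5.70 CPM), hoxb5a (18.6 ± 2.96 CPM) and hoxb13a (13.6 ± 7.85 CPM). Their mix differed between libraries. After their values were seen, the genes were split into groups 1 to 4, 5 to 8 and 9 to 13. Groups 1 to 4 summed to 119, 97.4 and 92.5 CPM in replicates 1, 2 and 3. Of the 12 such genes with at least 1 CPM, 11 were highest in replicate 1. The exception was hoxc3a, the highest Hox gene, at 29.2, 38.9 and 33.8 CPM, lowest in replicate 1. Groups 5 to 8 summed to 68.2, 60.7 and 53.1 CPM, and 5 of 9 such genes were highest in replicate 1. Groups 9 to 13 summed to 63.6, 122 and 105 CPM, and 19 of 20 genes were lowest in replicate 1. Of all genes with at least 10 CPM, 34.1% were highest and 52.1% lowest in replicate 1. Most Hox genes lie below that level, and the shares for all genes with at least 1 CPM are not given here. hoxb13a, the posterior gene with the highest mean, had 4.53, 18.1 and 18.1 CPM. By the group sums, replicate 1 thus held more anterior and less posterior Hox RNA than the other 2 libraries. It also held the least RNA of the lysosome-rich enterocyte markers given earlier. The part of either in the other differences between libraries was not tested.

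**Figure D4:**
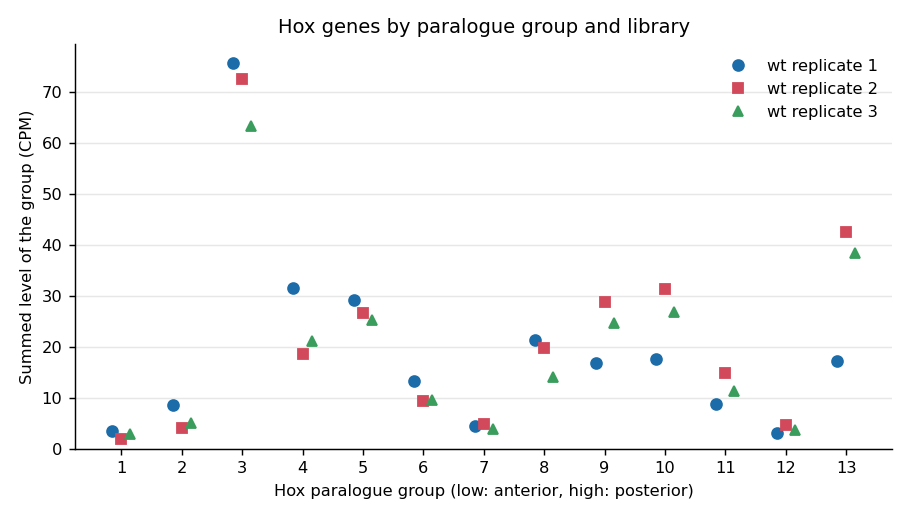
Summed CPM of all Hox genes in each paralogue group, from anterior group 1 to posterior group 13; circles, squares and triangles are replicates 1, 2 and 3. From group 9 to group 13 replicate 1 lies lowest in each group, while from group 1 to group 6 it lies highest.

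Among the lists of general functions, cytosolic ribosomal proteins took the largest share, 11.4%, 9.47% and 8.88%. Of 74 members with at least 10 CPM, 61 were highest in replicate 1 and 72 lowest in replicate 3. The differences were small, with a median of 1.24-fold between replicates 1 and 3. rps2 and rplp0 led, followed by rpl3 at 3582 ± 296 CPM. Translation factors took 5.44% ± 0.354. After eef1a1l1 and eef2b, that list was led by tpt1 at 2835 ± 271 CPM. Antioxidant and detoxification genes took 3.39% ± 0.225. In this list cyp1a, the dioxin-inducible cytochrome P450, had 1458, 3077 and 3577 CPM, and the lipid peroxide reductase gpx4a 1653 ± 115 CPM.

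The shares of 2 lists of energy metabolism took different orders of libraries. Glycolysis and gluconeogenesis genes took 3.19%, 2.40% and 2.59%, with gapdh (3740 ± 808 CPM) and pck1 among the high members. The list share was highest in replicate 1, whereas pck1 had 7535, 10872 and 9641 CPM, lowest there. Of the 24 members with at least 10 CPM, 14 were highest and 8 lowest in replicate 1. Among all genes at that level, 34.1% were highest and 52.1% lowest there. By the median member, replicate 1 was only 1.14-fold above replicate 2 and 1.06-fold above replicate 3. Respiratory chain and ATP synthase genes took 1.52%, 1.74% and 1.81%, and 73 of 80 members with at least 10 CPM were lowest in replicate 1, against 52.1% of all genes at that level. The ATP synthase subunits atp5f1b (2094 ± 183 CPM) and atp5fa1 (1958 ± 214 CPM) and the succinate dehydrogenase subunit sdha (873 ± 283 CPM) led them. Proteasome genes took 0.248% ± 0.0242, and 41 of 43 were lowest in replicate 1; psmd1, a regulatory particle subunit, averaged 152 ± 35.3 CPM.

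The secretory and lysosomal pathways took smaller shares. Endoplasmic reticulum and secretion genes took 0.873% ± 0.125, led by the translocon channel sec61a1, the chaperone canx (711 ± 183 CPM) and the disulfide isomerase pdia3 (616 ± 191 CPM). Lysosomal proteases and hydrolases outside the enterocyte list took 0.673% ± 0.0844, led by the saposin precursor psap (1061 ± 238 CPM) and the cathepsin ctsla (1057 ± 102 CPM). Heat shock genes took 1.03% ± 0.0514, of which hsp90ab1 held 71.6%. The constitutive chaperone hspa8 averaged 827 ± 48.4 CPM. In the iron and metal list the ferritin fth1a averaged 974 ± 154 CPM. Actin, tubulin and thymosin genes took 2.11% ± 0.0622, the steadiest share among the general lists by its ratio of SD to mean.

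Genes of cell division and of the immediate early response took small shares. Cell cycle and replication genes took 0.216%, 0.152% and 0.202%, and 24 of 30 members with at least 10 CPM were lowest in replicate 2. The replication clamp pcna averaged 166 ± 29.0 CPM, hmgn2 141 ± 11.8 CPM and hmgb2a 127 ± 18.0 CPM. Immediate early genes took 0.321%, 0.202% and 0.220%, led by mcl1a (300 ± 33.2 CPM), dusp1 (296 ± 24.1 CPM) and cebpd (255 ± 13.6 CPM), all within 1.25-fold across libraries. Other members, chosen after their values were seen, were not level. The AP-1 subunit fosab had 372, 31.3 and 31.7 CPM, and egr1 had 182, 9.66 and 11.3 CPM. Both were high in replicate 1 alone. mych went the other way, with 69.5, 198 and 156 CPM. Of the 23 members with at least 10 CPM, 13 were highest and 8 lowest in replicate 1. Among all genes at that level, 34.1% were highest and 52.1% lowest there.

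Spread between the 3 libraries was measured in 2 ways. The biological coefficient of variation, the spread beyond counting error estimated by edgeR over genes with a mean of at least 1 CPM, was 0.290. It was 0.177 without replicate 1, 0.277 without replicate 2 and 0.375 without replicate 3. Per gene, the median CV of the 6656 genes with a mean of at least 10 CPM was 11.7%, where counting alone would give 3.50%. For 4805 of them (72.2%) the CV was more than 2 times the counting CV. Replicates 1 and 2 differed at least 2-fold at 537 of these genes, replicates 1 and 3 at 321, and replicates 2 and 3 at 145.

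A small group of genes varied strongly. The SD of log2(CPM + 0.5) was at least 1 for 164 of the 6656 genes (2.46%). Of the 164, 112 (68.3%) were highest in replicate 1, intermediate in replicate 3 and lowest in replicate 2, an order shown by 1273 of the 6656 genes (19.1%). Skeletal muscle supplied 32 of the 164, out of 41 of its genes measured at that level. Epidermis supplied 10 of 26, exocrine pancreas 9 of 26, immediate early genes 5 of 23 and hepatocyte genes 5 of 57, and 93 were in no list. Without replicate 1 the count was 57, without replicate 2 it was 148 and without replicate 3 it was 297.

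The 10 most variable genes were fbp2, scpp5, krt93, col10a1a, pvalb7, zgc:165423, myhz2, pkhd1l1.1, pvalb4 and foxq1a, with SDs of log2(CPM + 0.5) from 4.19 to 2.47. All 10 were highest in replicate 1. The muscle fructose bisphosphatase fbp2 had 2514, 5 and 2 counts. scpp5, a secreted phosphoprotein of mineralizing tissue such as teeth, had 3173, 5 and 1093 counts, and the collagen col10a1a, found in skeletal tissue, 3583, 17 and 638 counts. scpp5 and col10a1a were intermediate in replicate 3, as muscle genes were, while fbp2 had 2 counts there. The keratin krt93 had 41.3, 0 and 22.5 CPM. The parvalbumins pvalb7 and pvalb4, calcium buffers of fast muscle, had 179, 2.89 and 45.1 CPM and 385, 11.6 and 122.8 CPM. pkhd1l1.1 (54.8, 1.68 and 2.41 CPM) and the forkhead gene foxq1a (53.7, 2.33 and 2.23 CPM) were low in both other libraries, like fosab and egr1. The clone-named zgc:165423 had 284, 6.49 and 77.2 CPM.

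**Figure D5:**
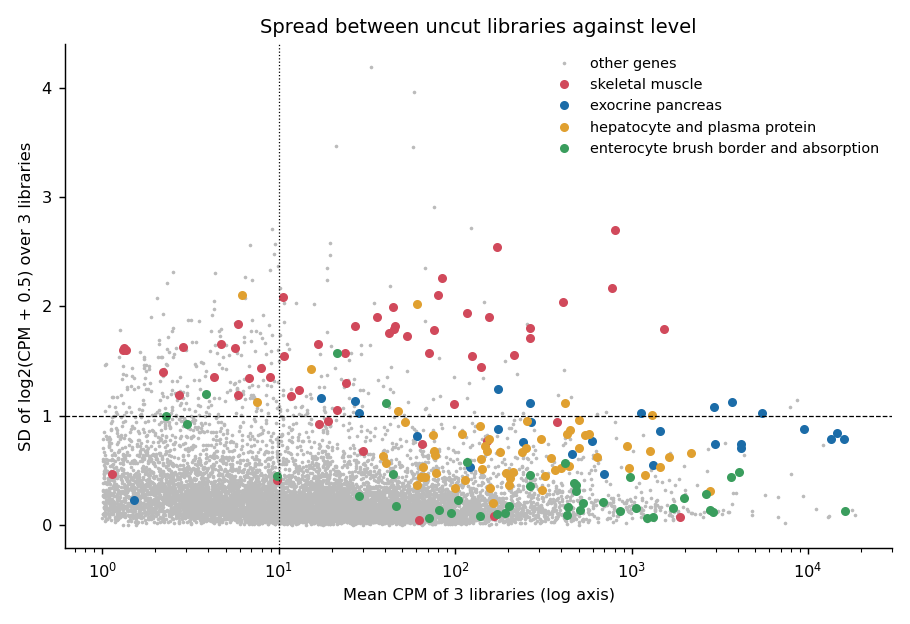
Each point is a gene with a mean of at least 1 CPM, with its mean CPM (log axis) against the SD of log2(CPM + 0.5) over the 3 libraries. The dashed line marks an SD of 1 and the dotted line a mean of 10 CPM; 164 genes lie at or beyond both lines, with skeletal muscle (red) and exocrine pancreas (blue) well above most brush border genes (green).

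The 5 genes with the lowest SD among those with a mean of at least 100 CPM were spint1a, pck2, gnb1a, pcbp2 and lsr. The epithelial protease inhibitor spint1a had 155, 155 and 155 CPM, with a CV of 0.296%. The mitochondrial phosphoenolpyruvate carboxykinase pck2 had 501, 505 and 504 CPM, and lsr, a protein of tricellular junctions, 114, 115 and 116 CPM. The G protein subunit gnb1a averaged 159 ± 0.913 CPM and the RNA-binding pcbp2 170 ± 1.41 CPM. Each of the 5 had a CV below its counting CV, 1.68% for spint1a.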

How the data were processed

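Counts were used as the authors deposited them: whole-number counts per gene symbol, not normalized, 1 column per library. Per the labels' protocols, RNA of pooled guts was made into stranded mRNA libraries, sequenced on a NovaSeq 6000 as 100 bp paired-end reads, checked with FastQC 0.11.8 and aligned to danRer11. For the aligner, counter and annotation nothing is stated (not given in the sources used here), and duplicated genes may share reads. Only the 3 wt columns were read. CPM used TMM-scaled library sizes (edgeR 4.0.16, R 4.3.3; factors 0.931 to 1.07). Shares used raw totals. Log values used a pseudocount of 0.5 CPM. With 1 group there was no test and no contrast. Values are means and SDs over libraries.

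The group described, which is defined by its label, and the 41 gene lists were taken up with earlier results of these data known. Of 1282 written members, 259 were not matched to a symbol, and 5 matched by synonym. Named are the 25 highest genes by mean CPM, up to 3 per list, defining markers, the 10 most variable genes with at least 10 CPM, the 5 steadiest with at least 100 CPM, and il22 and il26; 1 gene of the 25 is not reported here. The rule's 10 highest genes per coding length were not named, since no lengths of the files' build were at hand. Exceptions, chosen after their values were seen, are cdx1b, ckmb, fosab, egr1, mych, the Hox split and the families and pairs of the closing section. Also named outside the rule are tacr2, hoxb5a, the genes at the class borders and those given with the families. Alternatives were DESeq2 1.42.0 size factors and dispersions, other scalings, filters, denominators and leaving out each library.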

Additional observations from a re-analysis of the deposited data

How the results depend on the processing

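No paired analysis was possible because only 1 group is described and its values come from no test. Of 58 recomputed values, 44 moved by less than the spread between libraries or, for counts of genes, by less than 1.5-fold and, for the coefficient of variation, by less than 1.1-fold. Leaving out 1 of 3 libraries cannot move a mean share by the full SD of the 3. Those shares were therefore bound to be among the 44, which says nothing about how stable they are. Genes with a mean of at least 1 CPM numbered 10060 to 10975 under every scaling, detection rule and omission tried. Leaving out 1 library gave 10474 to 10718 such genes, 13.8% to 14.9% for the 10 most abundant genes, 6.07% to 10.1% for exocrine pancreas, 2.07% to 2.96% for hepatocytes, 6.27% to 6.76% for enterocytes, 0.537% to 1.18% for skeletal muscle and 23.5% to 25.04% for all tissue lists. Of counts outside the 10 most abundant genes, exocrine pancreas took 4.58% and enterocytes 5.67%. The enterocyte share was 7.06% of counts outside the exocrine pancreas list and 4.84% without chia.2, both chosen after the data were seen. The 3 most abundant members of each tissue list took 13.2%. The coefficient of variation was 0.177 to 0.375 on leaving out 1 library, 0.242 at a mean of at least 10 CPM and 0.263 at 100 CPM. The square root of the median DESeq2 dispersion was 0.204, a median over genes and not a common value like the edgeR ones. Genes with an SD of at least 1 numbered 57 to 297 on leaving out 1 library, 413 at a mean of at least 1 CPM, 438 with no filter and 39 at 100 CPM. Other filters test other numbers of genes. Values per coding length, and a denominator without mitochondrially encoded genes, of which none was matched, were not run. At this depth il26 and fabp2 rest on 8 counts or fewer per library, so no order of libraries is given for them.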

Other observations

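Genes were also grouped into families by symbol, after the data were seen. Some family members belong to the lists too, so these shares overlap with the list shares and do not add to them. Solute carriers took 2.63% ± 0.0401 of the counts over 307 genes, with slc25a5 holding 25.7% of them and the peptide transporter slc15a1b at 1716 ± 189 CPM. Cytochromes P450 took 1.997% ± 0.201 over 70 genes, and cyp3a65 held 55.7% of that. ABC transporters took 0.767%, 1.14% and 1.12%, lowest in replicate 1, with abcb4 at 1866 ± 502 CPM and abcc2 at 1673 ± 325 CPM after abcg2a. Claudins, membrane proteins of tight junctions, took 0.415% ± 0.0277, and cldn15la (2593, 3103 and 3043 CPM) held 70.1% of the family. cyp24a1, which inactivates vitamin D, stood at 381, 384 and 791 CPM, and was high in replicate 3 alone.

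Many zebrafish genes exist as duplicates whose symbols differ by a final a or b. Pairs were formed from such symbols alone, so they also include separate genes or subunits named in this way, such as c8a and c8b, and their counts are not counts of duplicates. Over 743 such symbol pairs with a summed mean of at least 10 CPM, 1 member held 90% or more of the pair's CPM in every library in 262 pairs (35.3%), the a member in 137 and the b member in 125. In 73 pairs the shares stayed between 40% and 60%. The median range of a pair's share over the 3 libraries was 3.76 percentage points, and it was at least 20 points in 41 pairs. foxq1a made up 65.9%, 14.4% and 13.8% of its pair with foxq1b in replicates 1, 2 and 3. slc16a6a made up 62.0%, 16.4% and 19.5% of its pair, and tdo2a 53.7%, 26.9% and 32.9%. Members of a pair differ in length and can share reads, so these are shares of counts and not of transcripts.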
